A study of Mus musculus with 64 samples.

Results

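Growth hormone signals to the liver through a short, well-described route, and 10 genes of that route were followed here across mouse development. They were Ghr, Prlr, Stat5a, Stat5b, Socs2, Cish, Bcl6, Cux2, Igf1 and Igfals, 10 of the 23338 genes with a row in the count data, and all 10 were present. The genes were chosen by name for their place in the pathway, with sex and stage differences in liver already known from these same libraries, so their levels in liver are given as a description, without p-values. The libraries were 12 single eight-cell embryos (6 of each sex), 4 embryonic stem (ES) cell lines (2 male and 2 female), 24 livers of late-gestation fetuses and 24 livers of adults (12 of each sex at both stages). All came from C57BL/6 mice with no treatment or genetic change in the labels, and the adults were between 15 and 20 weeks old. ES cells are cultured cells derived from the early embryo, here in 2i medium, which holds inhibitors of 2 kinases. Nothing in the labels tied fetuses or embryos to litters, so p-values and spreads measure the variation among these libraries. The paper took its eight-cell embryos from several litters, and the tests here treat embryos as independent.

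In the liver, growth hormone binds its receptor on hepatocytes and activates the kinase JAK2, which phosphorylates the transcription factors STAT5A and STAT5B. In rodents the hormone is released in separated pulses in males and more evenly in females, and the pattern of release sets the sex-specific programme of the adult liver. STAT5 also switches on its own brakes, the SOCS family proteins CISH and SOCS2, while BCL6 and CUX2 are repressors that occupy many of the same liver genes.

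Reads assigned to genes numbered 1567583 to 4757610 per adult liver, 5145371 to 8499603 per fetal liver, 9857929 to 10386931 per ES line and 4659656 to 7725432 per embryo. Levels are CPM, the reads on a gene for every 1000000 reads on all genes, and 3 reads corresponded to between 0.289 and 1.91 CPM, which covers counting error only. Embryo libraries were made with a single-cell protocol, so stage and preparation cannot be told apart where embryos are set beside other samples. In adults, reads aligning to several places made up 42.2 to 61.1% of aligned reads in males and 32.7 to 43.2% in females. These ranges overlapped only between 42.2 and 43.2%, so in adults a fit with this share as a covariate can hardly tell it from sex. In fetuses, the share of reads outside genes was 39.9 to 49.0% in males and 34.1 to 38.1% in females, without overlap. The share aligning to several places was 23.2 to 26.1% in fetal males and 26.4 to 28.5% in fetal females, also without overlap. Sex and either share cannot be told apart in fetal liver, and a covariate fit there rests on slopes within each sex. All 5 hepatocyte markers with a row were present in every liver group, summing to 33230 to 43090 CPM in adult males, 40700 to 48380 in adult females and 22380 to 30240 in fetuses. The 6 erythroid markers summed to 4390 to 6443 CPM in fetuses, 160 to 198 in adult males and 14.99 to 44.38 in adult females. The adult sex difference in that sum was carried by Alas2, the erythroid form of an enzyme of haem synthesis, at 171 ± 13.1 CPM in males and 24.3 ± 7.26 in females (SD, n = 12 each), while Hbb-b1 was listed at 0 in every adult liver. Exocrine pancreas markers summed to as much as 121.4 CPM in fetal males (median 13.88) and 236.5 in fetal females (median 16.85). Cholangiocyte markers summed to as much as 326.8 CPM in fetal females (median 14.96). The part of such tissue in the spread of the 10 genes was not tested. In whole tissue, fewer cells of a type and less RNA per cell cannot be told apart.

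**Figure D1:**
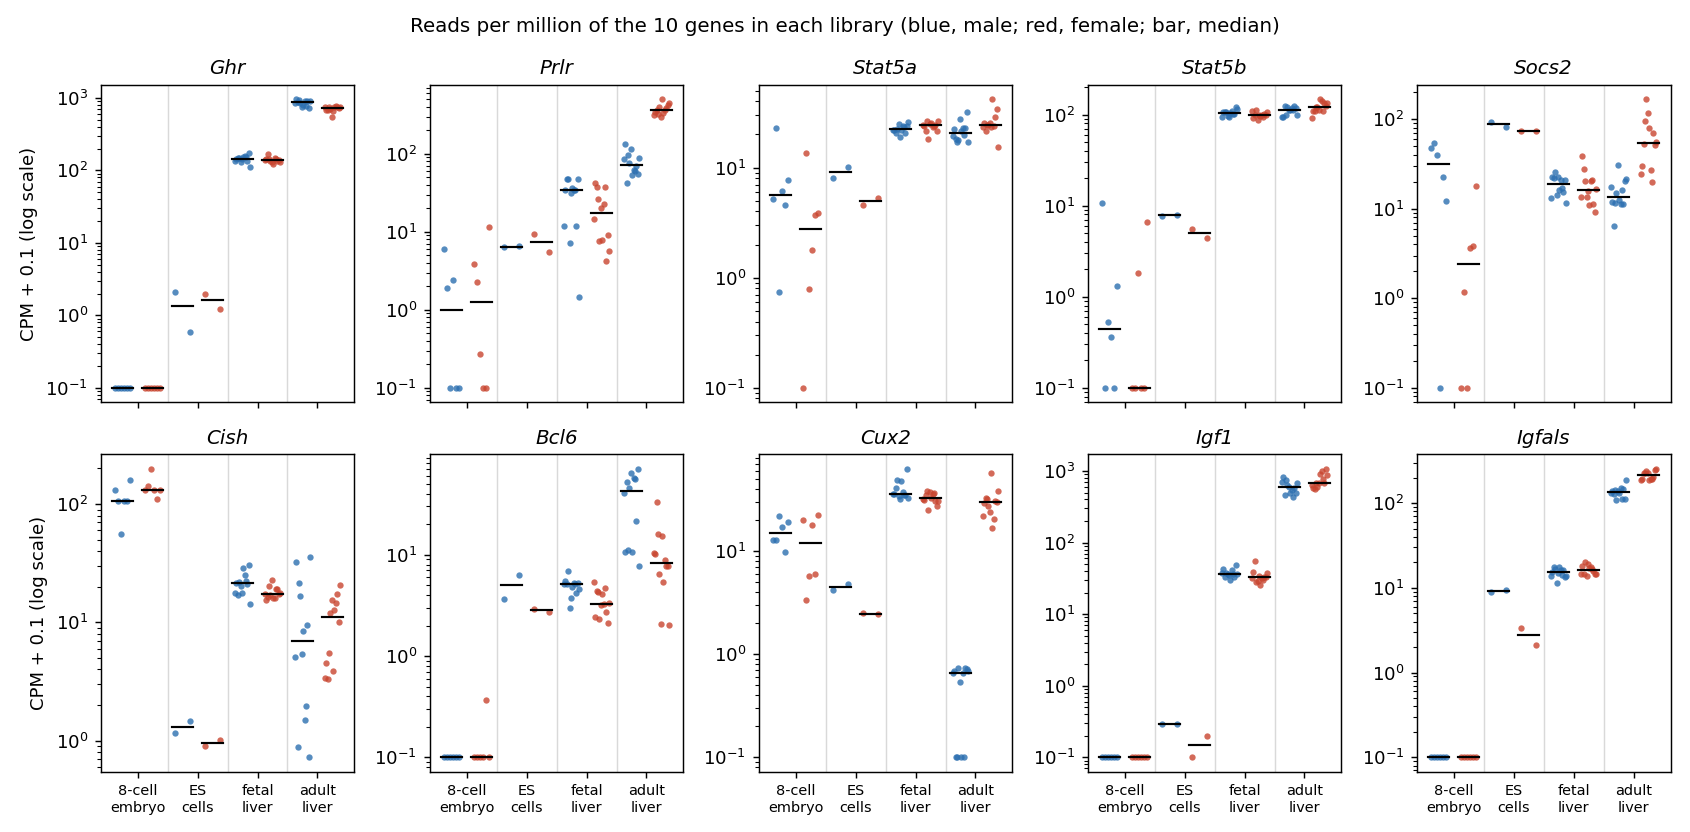
Level of each of the 10 genes in every library, as CPM + 0.1 on a log axis, in male (blue) and female (red) eight-cell embryos, ES lines, fetal livers and adult livers; each point is 1 library and each bar a group median. Prlr and Cux2 are the genes whose adult males and females do not overlap, and Ghr, Igf1 and Igfals have no reads in any of the 12 embryos.

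Across the 4 sample types, 7 of the 10 genes had their highest mean level in adult liver. The exceptions were Socs2, highest in ES cells, Cish, highest in eight-cell embryos, and Cux2, highest in fetal liver. The genes were chosen for a liver pathway, and the share of all genes highest in adult liver was not counted. Among the 7, adult and fetal ranges overlapped in CPM for Prlr, Stat5a, Stat5b and Bcl6. With TMM scaling over all libraries, the adult and fetal ranges still overlapped for Stat5a and Bcl6. Within adult liver, levels per kilobase of annotated exon put the growth hormone receptor and its secreted products at the top. Ghr averaged 94.6 CPM per kilobase in males and 78.8 in females, Igf1 60.6 and 76.5, and Igfals 42.8 and 67.6. Stat5b averaged 19.9 and 21.9 CPM per kilobase, and Prlr 5.12 and 24.4. The other 5 genes averaged between 0.0382 CPM per kilobase, for Cux2 in males, and 6.91, for Socs2 in females.

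The receptors come first. Ghr, on chromosome 15, encodes the growth hormone receptor. In adult liver it ranged from 737 to 957 CPM in males, with a median of 867, and from 544 to 784 CPM in females, with a median of 736. The groups overlapped, although 9 of the 12 males exceeded every female. The log2 fold change (male/female) was 0.25 ± 0.06 (SE from edgeR). In fetal liver Ghr ranged from 110 to 174 CPM in males, with a median of 145, and from 121 to 168 CPM in females, with a median of 138, and the sexes overlapped throughout, with a log2 difference of 0.05 ± 0.05. Adult livers therefore lay far above fetal livers for this receptor, by 3.15 ± 0.06 on the log2 scale in males and 2.90 ± 0.06 in females. ES lines held little of it, at 2.02 and 0.49 CPM in the male lines and 1.90 and 1.12 CPM in the female lines, and no read was assigned to Ghr in any of the 12 embryos.

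Prlr encodes the prolactin receptor, which rodent liver expresses and which also signals through STAT5. Adult males ranged from 41.8 to 136 CPM, with a median of 72.8, and adult females from 299 to 500 CPM, with a median of 363. Every female lay above every male, and the log2 difference was -2.27 ± 0.15, a 4.82-fold higher level in females. In fetal liver this separation was missing. Fetal males ranged from 1.38 to 47.8 CPM, with a median of 34.2, and fetal females from 4.19 to 42.5 CPM, with a median of 17.5. The sexes overlapped over nearly this whole range, and the spread within 1 sex was wide, with the highest fetal male 34.7 times the lowest. The log2 difference in fetuses was 0.55 ± 0.42 and became -1.11 with the share of reads aligned to several places as a covariate. Fetal males and females did not overlap in that share, so the fit cannot tell sex and share apart. From fetal to adult liver Prlr was higher by 2.02 ± 0.31 (log2) in males and by 4.80 ± 0.33 in females. ES lines held 6.26 and 6.41 CPM in males and 9.30 and 5.38 in females.

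Stat5a and Stat5b encode the 2 closely related STAT5 proteins and sit side by side on chromosome 11, so reads from their shared sequence could have been placed on either or on neither. In adult liver Stat5a ranged from 16.9 to 31.7 CPM in males, with a median of 20.4, and from 15.3 to 41.5 CPM in females, with a median of 24.3. Stat5b, the main form in hepatocytes, ranged from 93.1 to 124 CPM in males, with a median of 112, and from 92.0 to 147 CPM in females, with a median of 120. Males and females overlapped for both, with log2 differences of -0.32 ± 0.12 and -0.14 ± 0.07. In fetuses the corresponding differences were -0.07 ± 0.06 and 0.07 ± 0.05, again with overlapping ranges. Of the reads on either gene, Stat5b took 83.1% ± 3.04 in adult liver (SD, n = 24) and 81.6% ± 1.43 in fetal liver (SD, n = 24), against 48.1% ± 4.79 in ES lines (SD, n = 4). The adult-to-fetal differences were 0.58 ± 0.06 for Stat5a and 0.75 ± 0.04 for Stat5b on the log2 scale with TMM scaling, and 0.02 and 0.18 when library totals were used instead, a change that moved the median of all genes by -0.57. Read in relation to the median gene, both factors stood a little higher in adult liver under either scaling.

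The feedback inhibitors Socs2 and Cish differed from each other in nearly every respect. Socs2, whose loss causes overgrowth in mice, ranged in adult males from 6.25 to 31.0 CPM, with a median of 13.5, and in adult females from 19.7 to 166 CPM, with a median of 54.6. The sexes overlapped, but 9 of 12 males lay below every female and 8 of 12 females above every male. The log2 difference was -2.14 ± 0.34, a 4.41-fold higher level in females. Fetal livers ranged from 11.4 to 25.5 CPM in males, with a median of 18.8, and from 9.09 to 39.0 in females, with a median of 16.01, and the log2 difference was 0.02 ± 0.19. That difference became -0.97 with the share of reads aligned to several places as a covariate, a share without overlap between the fetal sexes. Between fetal and adult liver the females differed by 2.43 ± 0.26 (log2). The males differed by 0.31 ± 0.30 with TMM scaling, while mean CPM by library totals was lower in adult males (15.5 ± 6.53, SD, n = 12) than in fetal males (18.3 ± 4.43, SD, n = 12). Mean Socs2 was highest outside the liver, in ES cells, at 93.0 and 81.4 CPM in the male lines and 73.3 and 73.1 CPM in the female lines, although single adult females reached higher levels.

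Cish encodes the STAT5-induced inhibitor CISH, and of the 9 genes with reads in every adult male it had the widest ratio of highest to lowest. Adult males ranged from 0.622 CPM, a single read, to 35.7 CPM, 120 reads, with a median of 6.86. Adult females ranged from 3.21 to 20.4 CPM, with a median of 11.01. The highest male was 57.4 times the lowest, against 6.36 times in females, and the female range lay wholly inside the male range. The log2 difference was 0.21 ± 0.51. It moved to 2.05 with the share of reads aligned to several places as a covariate, which barely overlapped between the adult sexes. Male Cish had r = -0.73 with that share. Fetal livers were tighter, at 14.1 to 30.7 CPM in males, with a median of 21.3, and 15.2 to 22.9 CPM in females, with a median of 17.4. Cish was the only one of the 10 genes whose adult and fetal livers did not differ past the thresholds given with the stage comparison, at -0.31 ± 0.23 on the log2 scale with TMM scaling and -0.87, past the thresholds, with library totals, which move the median of all genes by -0.57. Embryos held more than any other sample type, from 55.6 to 160 CPM in males and from 110 to 198 CPM in females.

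Because Cish and Bcl6 are standard examples of genes with STAT5 sites near their start, their start regions are shown. The letters searched were TTCNNNGAA, the core of a STAT5 site, which reads the same on both strands. RefSeq windows of 300 bases (250 before the start and 50 from it, GRCm38.p6) existed for 9 of the 10 genes, 18 windows in all. At least 1 match was held by 6 of these windows, from Cish, Bcl6, Igfals and Prlr, compared with 2726 of all 32851 windows, or 8.3%. Capitals in the runs mark each match. The Cish run (chr9:107296409-107296683, plus strand) holds 2 matches that begin at bases 1 and 12 counted from the RefSeq start. A longer annotation of Cish begins upstream of that start and places both matches in an exon. The upper Bcl6 run (chr16:23981284-23981533, minus strand) lies before a start within an intron of the longer annotation and holds 3, beginning 168, 122 and 88 bases before that start. Only 11 of the 32851 windows, 0.0335%, held 3 or more. The lower Bcl6 run (chr16:23988853-23989102, minus strand) lies directly upstream of the gene and holds 1, which begins 118 bases before the start.
Cish start region: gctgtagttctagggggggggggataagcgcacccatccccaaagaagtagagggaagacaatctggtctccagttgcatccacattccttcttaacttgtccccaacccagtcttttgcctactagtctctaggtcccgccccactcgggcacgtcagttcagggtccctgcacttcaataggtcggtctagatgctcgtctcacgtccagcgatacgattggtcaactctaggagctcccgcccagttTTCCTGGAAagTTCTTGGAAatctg
Bcl6 intronic start: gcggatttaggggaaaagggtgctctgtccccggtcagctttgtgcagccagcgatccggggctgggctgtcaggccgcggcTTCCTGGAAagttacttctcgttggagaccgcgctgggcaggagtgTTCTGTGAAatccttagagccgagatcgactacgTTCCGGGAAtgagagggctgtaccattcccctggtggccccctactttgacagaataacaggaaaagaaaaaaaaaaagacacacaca
Bcl6 upstream start: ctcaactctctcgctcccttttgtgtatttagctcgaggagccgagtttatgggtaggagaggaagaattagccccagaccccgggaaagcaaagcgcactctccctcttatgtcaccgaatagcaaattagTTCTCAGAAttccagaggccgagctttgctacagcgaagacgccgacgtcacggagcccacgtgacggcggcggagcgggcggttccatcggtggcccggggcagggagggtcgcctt
These matches are letters in a window and not measured binding. Igfals held 1 match in each of 2 windows, 236 and 58 bases before a start, and Prlr held 1, 110 bases before a start.

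The repressors come next. Bcl6 encodes a repressor that is higher in male liver and that competes with STAT5 for sites. Adult males ranged from 7.73 to 70.2 CPM, with a median of 42.8, and adult females from 1.91 to 32.8 CPM, with a median of 8.16. The groups overlapped, with 7 of 12 males above every female, at 40.4 to 70.2 CPM, and the other 5 at 7.73 to 21.6 CPM. The log2 difference was 1.79 ± 0.43, a 3.45-fold higher level in males. It was 0.65, no longer past the thresholds used below, with the share of reads aligned to several places as a covariate. Adult males and females barely overlapped in that share, so the fit can hardly tell it from sex. In fetuses Bcl6 was low in both sexes, at 2.86 to 6.80 CPM in males, with a median of 5.05, and 2.00 to 5.26 CPM in females, with a median of 3.20, and the log2 difference was 0.48 ± 0.15. Between fetal and adult liver it differed by 3.53 ± 0.31 (log2) in males and 2.17 ± 0.38 in females. Embryos had no read on Bcl6 apart from 2 reads in 1 female.

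Cux2 encodes a homeodomain repressor that is confined largely to female liver in adult rodents. In adult males it was at or near the detection floor in every library. The male range was 0 to 0.636 CPM with 4 of 12 libraries at 0 and no more than 3 reads in any. Adult females ranged from 16.8 to 56.5 CPM, with a median of 29.5, and none came near a male. The 12 males together held 15 reads of 37291497, or 0.402 CPM (exact Poisson interval 0.225 to 0.663 at 95%), and the 12 females 847 reads, or 29.2 CPM (27.3 to 31.2), intervals that cover counting error only. The pooled female level was 72.6 times the male level (43.8 to 130), and the fitted log2 difference was -6.07 ± 0.27.

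Fetal liver lacked this difference. Cux2 ranged from 31.8 to 62.5 CPM in fetal males, with a median of 35.8, and from 25.1 to 38.4 CPM in fetal females, with a median of 32.3, an overlapping pair of groups with a log2 difference of 0.28 ± 0.10. Adult females overlapped the fetal livers, at 0.40 ± 0.12 above fetal females on the log2 scale with TMM scaling, while the mean CPM by library totals was lower in adult females (29.8 ± 10.3, SD, n = 12) than in fetal females (32.7 ± 4.05, SD, n = 12). Adult males were lower than fetal males by far more, at -5.99 ± 0.25. Embryos also held Cux2, at 9.70 to 21.9 CPM in males and 3.26 to 22.3 CPM in females, and ES lines held 4.14 and 4.66 CPM in males and 2.40 and 2.33 CPM in females.

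Igf1 and Igfals are the secreted products of the axis. Igf1, insulin-like growth factor 1, is made mainly by the liver after birth and carries much of the growth-promoting action of growth hormone. In adults it ranged from 437 to 828 CPM in males, with a median of 588, and from 563 to 1068 CPM in females, with a median of 684. The sexes overlapped, with a log2 difference of -0.35 ± 0.12. It became -0.05 with the share of reads aligned to several places as a covariate, which barely overlapped between the adult sexes. Fetal livers held 30.3 to 49.1 CPM in males and 25.8 to 55.9 CPM in females, with a log2 difference of 0.12 ± 0.09. The adult-to-fetal difference was 4.81 ± 0.08 (log2), or 28.0-fold, and the adult and fetal ranges did not overlap.

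Igfals encodes the acid-labile subunit, which holds IGF1 in a long-lived complex in blood. It ranged in adults from 108 to 188 CPM in males, with a median of 135, and from 186 to 253 CPM in females, with a median of 212. Only 1 male entered the female range, and 11 of 12 males lay below every female. The log2 difference was -0.67 ± 0.08. Fetal livers held 11.3 to 17.5 CPM in males and 13.5 to 20.1 CPM in females, with overlap and a log2 difference of -0.12 ± 0.08. Adults exceeded fetuses by 4.02 ± 0.06 on the log2 scale, or 16.2-fold.

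**Figure D2:**
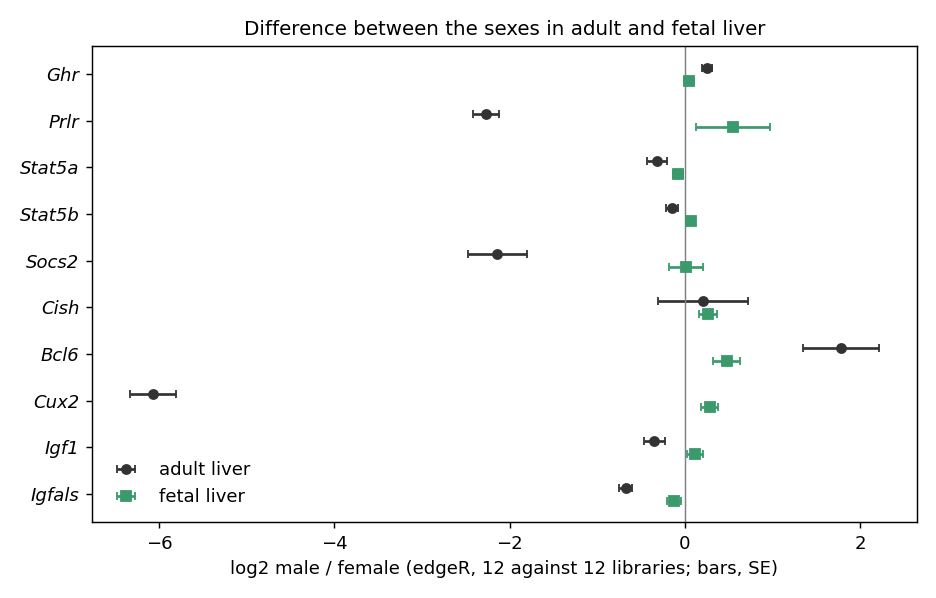
Log2 fold change (male/female) of each gene with its standard error from edgeR in fetal and in adult liver; values above 0 are higher in males. Adult Cux2 lies at -6.07, adult Prlr and Socs2 lie below -2, adult Bcl6 is at 1.79, and the fetal values lie between -0.12 and 0.55.

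Counted together against the thresholds used for all genes (adjusted p under 0.1 and an absolute log2 fold change over 0.5), 5 of the 10 genes passed in adult liver, beside 984 of 10372 genes tested (9.49%). Prlr, Socs2, Cux2 and Igfals were higher in females, and Bcl6 in males. Since the genes were picked with these differences known, that count describes the choice and supports nothing further. Males and females did not overlap for 2 of the 10 genes, Prlr and Cux2, beside 2.8% of the genes tested. In fetal liver none of the 10 passed by edgeR or by DESeq2, beside 4.64% of 12930 genes, and 3 were at an unadjusted p under 0.05 by each tool. By edgeR these were Cish, Bcl6 and Cux2, all higher in males, and they missed only the fold threshold. None of the 10 was without overlap between the fetal sexes, beside 1.96% of genes. The genes were chosen with the fetal differences known too, so these fetal counts are a description. Sex and the library shares given above cannot be told apart in fetal liver. The median log2 difference of the 10 genes was -0.33 in adults and 0.09 in fetuses, and the medians of all genes tested were -0.00 and -0.03.

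The sex difference itself was compared between the stages by the interaction term of a joint fit of the 48 livers. Its adjusted p was under 0.1 for 7 of the 10 genes, beside 33.7% of 13026 genes. The genes were chosen with these differences known at both stages, so the count is a description of the choice. Cux2 had the widest shift, at -6.38 ± 0.30 on the log2 scale, followed by Prlr at -2.78 ± 0.43 and Socs2 at -2.12 ± 0.39. For these genes the adult value was more female-sided than the fetal value. Bcl6 shifted the other way, by 1.36 ± 0.49, and so did Ghr, by 0.25 ± 0.08. Adult and fetal livers differed past the thresholds for 9 of the 10 genes, 8 higher in adults and Cux2 lower, beside 67.1% of 13026 genes (4132 higher and 4610 lower with TMM scaling, 2399 and 7034 with library totals). The median of the 10 was 2.11 and that of all genes was -0.05. The erythroid marker sum, given above, was lower in every adult than in every fetal liver, and its part in these differences was not tested.

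**Figure D3:**
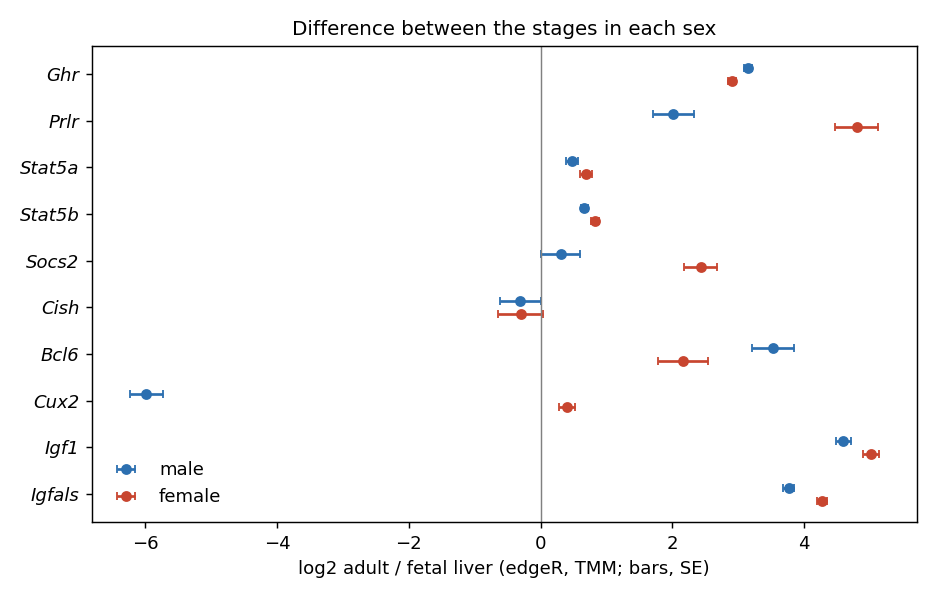
Log2 difference (adult/fetal liver) with its standard error for each gene, in males and in females separately; values above 0 are higher in adults. The sexes part most for Cux2 (-5.99 in males, 0.40 in females), Prlr (2.02 and 4.80) and Socs2 (0.31 and 2.43).

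ES cells and eight-cell embryos played no part in choosing the genes, so the sexes were tested there. In ES cells 9 of the 10 genes had enough reads, and 1 passed, beside 9.5% of 12678 genes. It was Igfals, at 8.76 and 9.33 CPM in the male lines and 3.30 and 2.03 CPM in the female lines, without overlap. The log2 fold change was 1.72 ± 0.30 with an adjusted p of 0.0382 (edgeR quasi-likelihood test). The call was lost without either female line, but with 1 female line left such a fit cannot say whether Igfals itself is unstable. The male lines also exceeded the female lines without overlap for Stat5a, Stat5b, Socs2, Cish, Bcl6 and Cux2, making 7 of 9 with Igfals, but with 2 lines of each sex 57.7% of all genes did not overlap. None of those 6 passed. The nearest by edgeR were Stat5a, at 0.86 (log2, adjusted p = 0.111), and Cux2, at 0.86 (log2, adjusted p = 0.1495). Igf1 had 5 reads over the 4 lines and was not tested.

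In embryos 5 of the 10 genes were tested and none passed by edgeR or by DESeq2, beside 0.264% of 9087 genes by edgeR, and 1 was at an unadjusted p under 0.05 by edgeR and 0 by DESeq2. That gene was Socs2. Male embryos ranged from 0 to 53.9 CPM, with a median of 31.3, and female embryos from 0 to 17.99 CPM, with a median of 2.31. The groups overlapped, since 1 male and 2 females had no read. The log2 fold change was 2.67 ± 1.16, with an adjusted p of 0.9999 by edgeR. Cish, the best-covered member in embryos, had a log2 fold change of -0.41 ± 0.23 and the same adjusted p of 0.9999. Ghr, Igf1 and Igfals had no read in any embryo, so at the depth of these libraries their presence could not be detected.

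Levels of the 10 genes were then compared animal by animal within each sex and stage, as log2(CPM + 0.5), over 12 livers a group. Across the 4 groups 171 pairs had enough reads to be compared (Cux2 in adult males did not). By a permutation test of Pearson's r with Benjamini-Hochberg adjustment, 8 pairs passed an adjusted p of 0.05, 5 of them positive and 3 negative. How often pairs of other genes pass in the same libraries was not tested, so the count is not a property of these genes alone. No pair reached that level by Spearman's rho, whose adjusted p for these 8 lay between 0.065 and 0.224.

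The pair that passed in both sexes of adult liver was Cish with Bcl6, the genes whose start regions are printed above. In adult males r was -0.83 (permutation p = 0.00181, adjusted p = 0.0387) and rho was -0.83 (p = 0.0014). In adult females r was -0.80 (permutation p = 0.00079, adjusted p = 0.0325) and rho was -0.83 (p = 0.0013). Without the 2 livers farthest from the median of Cish, r was -0.80 in males and -0.77 in females. The extremes in males were opposed. The male with 0.622 CPM of Cish had 70.2 CPM of Bcl6, and the male with 35.7 CPM of Cish had 7.73 CPM of Bcl6. Among the 7 males of higher Bcl6 alone, r was -0.62. Given the share of reads aligned to several places, r in males was -0.78 (adjusted p = 0.0737). Without the libraries under 2000000 reads r was -0.81 over 9 males (adjusted p = 0.167 by permutation) and -0.75 over 8 females (adjusted p = 0.213). Fetal livers had r of 0.21 in males (p = 0.518) and 0.19 in females (p = 0.562) for the same pair by permutation.

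**Figure D4:**
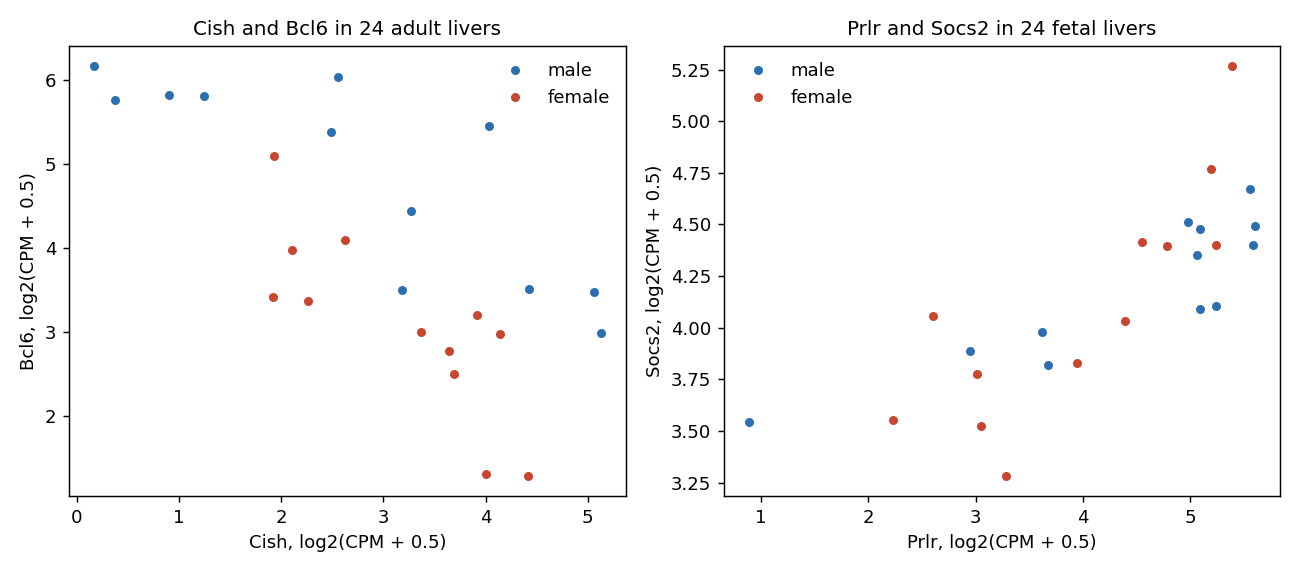
Cish against Bcl6 in the 24 adult livers and Prlr against Socs2 in the 24 fetal livers, both axes as log2(CPM + 0.5), each point 1 liver, with sex by colour. Cish and Bcl6 run in opposite directions in adults (r = -0.83 in males, -0.80 in females), and Prlr and Socs2 run together in fetuses (0.87 and 0.82).

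In fetal liver Prlr moved with Socs2. In males r was 0.87 (permutation p = 0.00021, adjusted p = 0.018) and rho was 0.71 (p = 0.0121). In females r was 0.82 (permutation p = 0.00095, adjusted p = 0.0325) and rho was 0.78 (p = 0.00397). Without the 2 livers farthest from the median of Prlr, r was 0.78 and 0.90. Fetal male Prlr had a gap between 11.8 and 31.0 CPM, and among the 8 males above it r was 0.37, so the male relation rests on the 4 livers of low Prlr. In females r was 0.50 (adjusted p = 0.363) given the share of reads aligned to several places, with which female Prlr had r = -0.76 and Socs2 -0.87. Ghr with Prlr also passed in fetal males, with r = 0.88 (permutation p = 0.0002, adjusted p = 0.018) and rho = 0.81 (p = 0.00228). There r was 0.72 without the 2 farthest livers and 0.44 among the same 8 males, so this relation too rests on the livers of low Prlr, and in fetal females r was 0.64 (adjusted p = 0.182 by permutation).

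The 3 other pairs that passed did so in males alone, and the difference between the sexes was not tested. In fetal males Ghr with Cish had r = 0.82 (permutation p = 0.00118, adjusted p = 0.0336) and rho = 0.73 (p = 0.00914), with r = 0.52 without the 2 farthest livers. This call was lost given the share of reads outside genes (r = 0.76, adjusted p = 0.079) or aligned to several places (r = 0.80, adjusted p = 0.0737). In adult males Prlr with Igf1 had r = 0.86 (permutation p = 0.00042, adjusted p = 0.0239) and rho = 0.88 (p = 0.00038), with r = 0.89 without the 2 farthest. Over the 9 males with at least 2000000 reads r was 0.76 (adjusted p = 0.213 by permutation). In adult males Stat5b with Igf1 had r = -0.81 (permutation p = 0.00153, adjusted p = 0.0374) and rho = -0.65 (p = 0.0255), with r = -0.75 without the 2 farthest, and r = -0.74 and adjusted p = 0.118 with library totals. It was also lost given the share aligned to several places (r = -0.70, adjusted p = 0.115) and over the 9 deeper males (r = -0.75, adjusted p = 0.223, by permutation). In adult females the same pair had r = 0.62, with the opposite sign.

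Over all genes tested in the 24 adult livers, with the mean of each sex removed, the genes most like each member by Pearson's r were listed for the 5 members with the widest sex difference or scatter. Cish was followed most closely by Arhgap29 (r = 0.86), Onecut1, a hepatocyte transcription factor (0.86), and Rgs3, a regulator of G-protein signalling (0.80). Socs2 was followed by Fam60a (0.78), Egfr, the receptor for epidermal growth factor (0.77), and Erlin1 (0.75). Bcl6 was followed by Cyp2d40 (0.78), Actr1a (0.77) and Slc39a4, a zinc transporter (0.68). Prlr was followed by Kdm5d (0.82), which lies on the Y chromosome and so varied among males only, AI314180 (0.82) and Rbm26 (0.79). Cux2 was followed by Kctd2 (0.70), Nes (0.69) and Gm10845 (0.63). Its male values rest on 0 to 3 reads a library, and their spread on the log scale enters these r beside that of the females. These values share the same libraries and depth and are given as a description.

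The rest of the pathway was taken from 9 gene lists, whose counts in adult liver stand beside 9.49% of all genes tested. In adult liver none of the 3 tested genes among the hormones and receptor kinase differed by sex, by edgeR or DESeq2, with 0 at an unadjusted p under 0.05. None of the 3 other STAT factors tested passed by either tool, with 1 at an unadjusted p under 0.05. Of 5 other SOCS inhibitors 2 were higher in males, Socs3 (log2 1.01 ± 0.40, adjusted p = 0.0637) and Socs7 (0.52 ± 0.09, adjusted p = 3.08e-05), by edgeR. Of 12 phosphatases and adaptors only Sirpa passed, higher in females (-0.58, adjusted p = 4.09e-04). Of 9 IGF system genes Igfbp3 (-0.55, adjusted p = 2.65e-03) and Igfbp5 (-0.60, adjusted p = 0.0890), both IGF-binding proteins, were higher in females. Of 8 partners and relatives of the repressors Trim24 (-1.75, adjusted p = 1.21e-08), a coregulator, and Tox (-1.42, adjusted p = 3.00e-06) were higher in females. Of 4 STAT5 targets of blood cells Pim1 (1.03), a kinase, was higher in males and Id1 (-1.02) in females. With the share of reads aligned to several places as a covariate, Socs7, Sirpa, Igfbp3, Igfbp5 and Id1 no longer passed. Adult males and females barely overlapped in that share, so this fit can hardly tell it from sex.

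The known targets of the axis differed by sex in adults. All 15 male-biased growth hormone dependent genes tested were higher in males, with a median log2 difference of 3.65, among them Cyp4a12b (8.58), a fatty acid hydroxylase, Cyp2d9 (5.37), C6 (3.36), a complement component, and Gstp1 (2.995). All 14 female-biased genes tested were higher in females, with a median of -10.55, among them the cytochrome P450 genes Cyp2a4 (-11.13), Cyp2b13 (-10.85) and Cyp2b9 (-8.92) and the monooxygenase Fmo2 (-2.60). These lists were drawn up from known sex bias in liver, reads of the Cyp2 genes may be shared among near copies, and values of genes with few male reads depend on the prior count of the fit. In fetal liver none of the 4 male-biased and none of the 8 female-biased genes tested passed by edgeR or DESeq2, with 1 and 0 at an unadjusted p under 0.05.

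**Figure D5:**
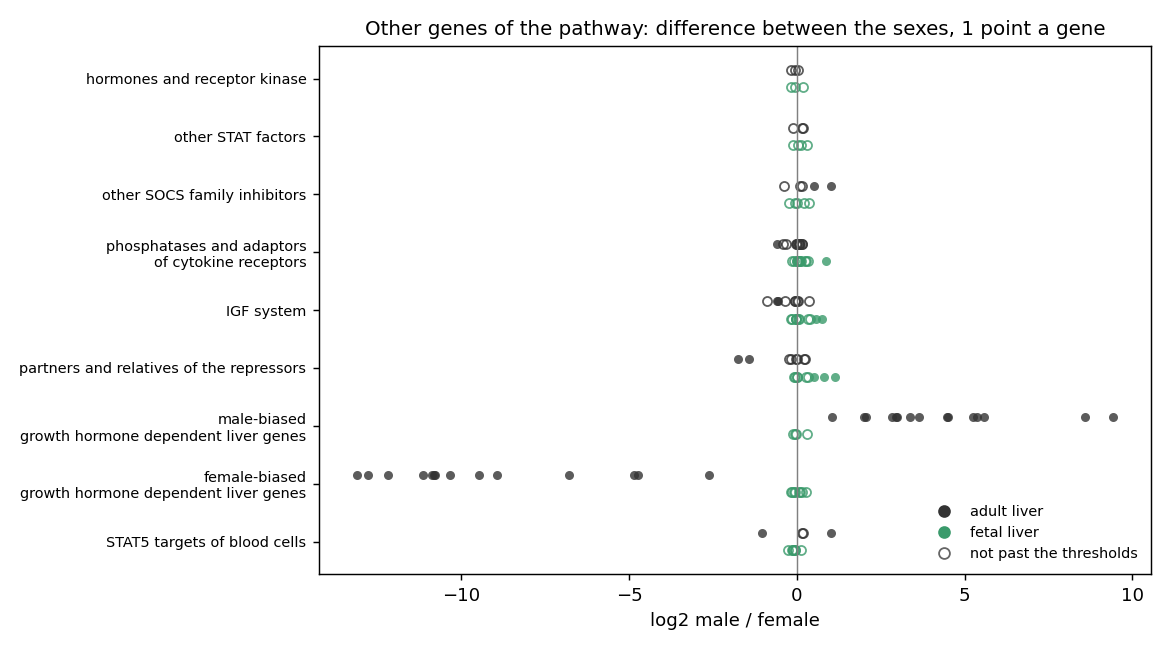
Log2 fold change (male/female) of the tested genes of each list in fetal and adult liver, each point 1 gene, open where it is not past the thresholds. The male-biased and female-biased targets lie on opposite sides of 0 in adults, with medians of 3.65 and -10.55, and the genes of the other lists lie between -1.75 and 1.03 in adults.

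In fetal liver 6 listed genes were higher in males by edgeR, named here after their values were seen. They were Cbl (log2 0.87), Igf1r (0.58), Igfbp5 (0.74), Tox (0.51), Onecut1 (0.82) and Onecut2 (1.15). None of the 6 passed with the share of reads outside genes as a covariate, a fit in which 9 genes passed in all. Fetal males and females did not overlap in that share, so this fit cannot tell sex and share apart.

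Between fetal and adult liver the rest of the pathway did not move as a block, and its counts stand beside 67.1% of all genes tested. Jak2, the receptor kinase, was lower in adults (log2 -1.21). Of 4 other STAT factors Stat2 (1.11), Stat6 (0.75) and Stat3 (0.63) were higher and Stat4 (-2.12) was lower. None of the 5 other SOCS genes passed by edgeR, with 3 at an unadjusted p under 0.05. Among the 13 phosphatases and adaptors 1 was higher, Irs1 (0.66), and 5 lower, led by Sirpa (-1.65), Cbl (-1.32) and Ptpn6 (-0.74). The IGF system was divided, with 4 of 11 genes higher, led by Igfbp2 (2.78), Igfbp7 (2.18) and Igfbp4 (2.01), and 4 lower, led by the fetal growth factor Igf2 (-11.84), Igf1r (-2.53) and Igfbp1 (-2.23). Among the 9 partners of the repressors Onecut2 (1.61) was higher and Bcor (-1.16) lower. With library totals Stat6, Stat3 and Irs1 no longer passed. All 15 male-biased targets were higher in adults, led by Mup1 (10.76), Slco1a1 (10.21) and Mup20 (10.15). Of the 14 female-biased targets 7 were higher, led by A1bg (10.14), Fmo2 (4.48) and Cyp17a1 (2.99), and 2 lower, Cyp3a16 (-4.93) and Hao2 (-4.84). All 7 STAT5 targets of blood cells were lower in adults, led by Osm (-6.32), Epor (-5.28) and Tfrc (-4.49), beside the lower erythroid marker sum.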

How the data were processed

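RNA was sequenced from ES lines, single eight-cell embryos, fetal livers and adult livers, and the authors deposited whole-number read counts per gene for each library, not normalised. The authors mapped reads to mm10 with TopHat2 2.0.4, Bowtie2 2.1.0 and SAMtools 0.1.18, removed duplicates with Picard and assigned reads to genes with HTSeq. Liver and ES libraries came from a stranded total RNA kit. Removing duplicates caps the counts of abundant short transcripts, and reads aligned to several places are not assigned, which touches paralogues. Rows that name no gene held 28.0 to 73.2% of all reads in a library and were left out of library sizes and tests.

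Groups follow the stage and gender labels. Each sex comparison was fitted in edgeR 4.0.16 (R 4.3.3) by the quasi-likelihood test with TMM scaling and its filter on low counts, over all genes, with a call at a Benjamini-Hochberg adjusted p under 0.1 and an absolute log2 fold change over 0.5, after the thresholds of the study. The stage by sex term, called on the adjusted p alone, and the stage difference came from a joint fit of 48 livers. Correlations used a pseudocount of 0.5 and 100000 permutations in scipy 1.17.1. Single values per library are CPM of gene-assigned reads, and SDs are over libraries. The edgeR fit of the sex comparisons was run on simulated counts with the same spread for every gene and changes in well-covered genes only. Its pass rule left out the embryos, so it does not cover them or genes with few reads. Exon lengths and gene positions came from GENCODE M21, which may differ from the annotation used for counting.

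Some listed genes are not reported here. Members and lists were chosen with earlier results of these data known. Named genes are the members, for each list the called genes of the adult sex comparison (at most 4 in each direction by smallest adjusted p) and of the stage comparison (at most 3 in each direction by largest absolute log2 difference), and the 3 genes most like each of 5 members. No pair of libraries was identical within sampling noise. Alternatives were DESeq2 1.42.0, its size factors, library totals, no low-count filter, covariates for the share of reads outside genes or aligned to several places, leaving out shallow libraries or single ES lines, and the replicate number as a block.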

Additional observations from a re-analysis of the deposited data

Results flagged for a closer look

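Among the eight-cell embryos, 8 of 13 groups of 6 libraries tested held 1 library standing far from the rest. The rule marks about 1 in 20 groups by chance where values are normally distributed. That rate does not hold for skewed counts with many zeros, so the 8 groups are a description. In female embryos the highest library reached 11.6 CPM for Prlr, 13.4 CPM for Stat5a, 6.59 CPM for Stat5b, 17.99 CPM for Socs2, 198 CPM for Cish and 0.268 CPM, or 2 reads, for Bcl6. For Prlr, Stat5b and Socs2 the highest library was the same embryo, so these groups are not independent. In male embryos the highest reached 22.7 CPM for Stat5a and 10.5 CPM for Stat5b. The gap to the next library was large against the range of its group, although Cish in the next female was 141 CPM and the 2 reads of Bcl6 lie under the 3-read floor.

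The sex difference of 20 of 21 named pathway and target genes differed between adult and fetal liver by the interaction term of edgeR (adult minus fetal log2 male/female, adjusted p under 0.1), beside 33.7% of all genes tested. The genes were named because they passed in the adult or the fetal sex comparison, so this count follows largely from that choice. Among male-biased targets the shift was 3.16 for Gstp1, 9.48 for Cyp4a12b, 5.43 for Cyp2d9 and 3.47 for C6. Among female-biased targets it was -11.34 for Cyp2a4, -9.16 for Cyp2b9, -11.26 for Cyp2b13 and -2.61 for Fmo2. Signalling and repressor genes shifted less. The shift was 0.61 for Socs7, 1.30 for Socs3, -0.67 for Sirpa, -0.48 for Igfbp3, -1.30 for Igfbp5, -1.71 for Trim24, -1.90 for Tox, 1.23 for Pim1 and -0.93 for Id1. The genes higher in fetal males included Cbl, with a shift of -0.81, Igf1r, with -0.59, and Onecut2, with -1.11.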

How the results depend on the processing

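The count of members past the thresholds in adult liver was 5 or 4 under every alternative but 1, and was 8 with no fold threshold. The genes called in adult liver numbered 1518 without the filter on low counts, 608 with the share of reads aligned to several places as a covariate (268 higher in males and 340 in females, against 312 and 672) and 3400 with no fold threshold, against 984. In fetal liver they numbered 1057 without the filter, 9 with the share outside genes as a covariate and 4807 with no fold threshold, against 600. Higher in males were 86 of 462 genes with the several-places share and 645 without the filter, against 493. Members passing in fetal liver were 1, Socs2, with the several-places share and 3 with no fold threshold. Neither share overlapped between fetal males and females, so the fetal fits with a share as covariate cannot tell it from sex. The several-places share barely overlapped between adult males and females, so the adult fit with it can hardly tell it from sex. The fetal log2 differences that changed sign were Igfbp5 (-0.49) and Tox (-0.045) with the share outside genes, and Igfbp5 (-0.40) and Onecut1 (-0.069) with the several-places share. In ES cells leaving out 1 line gave 0 to 3070 genes and 0 to 6 members, the log2 difference of Ghr ran from -1.66 to 0.39 and that of Prlr from -0.59 to 0.19, and the lone line left is assumed to vary like the other sex. DESeq2 called 80 genes in embryos against 24. The stage by sex term called 2352 genes with the share outside genes, against 4384. Of pairs of members, 13 passed given the depth, 4 given the several-places share and 2 without the libraries under 2000000 reads, against 8. The several-places share and the removal of shallow libraries from the correlations were chosen after seeing the data. The cause of these changes was not tested.

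With the replicate block 8731 genes differed between adult and fetal liver, against 8742, and 9 members passed in both. Libraries of the same number deviated together in none of 24 pairs (r from -0.087 to 0.045), so they share only a number. Adult depth of 1567583 to 4757610 reads limits Cux2 in males and Cish in single livers.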
